A study of Mus musculus with 6 samples.

Results

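The genes described here are 10 cadherin and catenin genes, namely the cadherins Cdh1, Cdh2, Cdh3, Cdh4, Cdh6, Cdh11 and Cdh13 and the catenins Ctnna1, Ctnna3 and Ctnnd1. They were chosen by name from the 21887 protein-coding genes of the annotation. Each was described by the ATAC-seq peaks that overlap its gene body or the 10 kb on either side, a stretch called its window. ATAC-seq marks open chromatin as the places where a transposase can cut DNA.

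The cells were immortalised mesenchymal cells of the mouse atrioventricular cushion, labelled as strain H- 2Kb-tsA58 transgenic, a transgene that carries a temperature-sensitive large T antigen driven by the H-2Kb promoter. One set was kept for 48 h in 25 mM glucose (high glucose, libraries HG1, HG2 and HG3), and the controls for 48 h in 5.5 mM glucose (normal glucose, libraries NG1, NG2 and NG3). All were at passage 6, with 54000 cells per library, and all carry the same transgene, so the 2 groups differ in glucose alone as far as the labels say. The series asks how maternal diabetes raises the risk of congenital heart disease, for which a single cultured line stands in for the embryonic valve primordium.

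Classical cadherins are transmembrane proteins whose outer domains bind calcium and pair with cadherins on the neighbouring cell. Their inner tails bind p120-catenin next to the membrane and beta-catenin farther along, and beta-catenin recruits an alpha-catenin that links the complex to actin. During valve formation, endocardial cells of the atrioventricular canal loosen their junctions, become mesenchymal and invade the cushion, a transition in which cells commonly lower some cadherins and raise others such as Cdh2 and Cdh11.

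The lists held 22156, 25020 and 22598 peaks in HG1, HG2 and HG3, and 24263, 66 and 40350 peaks in NG1, NG2 and NG3. NG2 fell below the minimum of 1000 peaks and held no peak in any of the 10 windows, so 5 lists were compared. The NG3 list was the longest, and since the files give no reads the depth of each library is unknown. The presence of a peak was therefore the quantity set side by side between lists. Peaks of the 5 lists that overlapped by at least 1 bp were merged into 49048 regions, of which 59 lay in the windows of the 10 genes. A percentile gives a peak's place within its own list by the authors' -log10 p, and it does not measure a change between lists of different length. A gene end was the 1 kb either side of either annotated end of a gene.

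The mesenchymal label was set beside marker genes. Of 10 mesenchymal markers, 4 had a gene-end peak in all 5 lists, near the 35.7% of all protein-coding genes. Pdgfra and Pdgfrb had none in any list. None of 7 epithelial and none of 6 cardiomyocyte markers had a gene-end peak in any list, where 48.0% of all genes had none. Of 6 endothelial markers, Kdr had one in 4 lists and the other 5 in none, while Spi1 among 5 blood markers and Tubb3 among 5 neural and glial markers had one in all 5. The epithelial markers were without gene-end peaks in the same libraries in which Cdh1, the epithelial cadherin, was read.

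The annotation tables give a strand and a promoter sequence for 3 of the 10 genes. The sequences are shown because they set a CpG-rich start that no list marked as open beside a CpG-poor start that every list marked, in one gene. Each runs 5′ to 3′ over the 250 bases before an annotated start, from RefSeq on GRCm38.p6, the build of mm10, with every CpG in capitals.
Ctnnd1 outer start, chr2:84658978-84659227, minus strand: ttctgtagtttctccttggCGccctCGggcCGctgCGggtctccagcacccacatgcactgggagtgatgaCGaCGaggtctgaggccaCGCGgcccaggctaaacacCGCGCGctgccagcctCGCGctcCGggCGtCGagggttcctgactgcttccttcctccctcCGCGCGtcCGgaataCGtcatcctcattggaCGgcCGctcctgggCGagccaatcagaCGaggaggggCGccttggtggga
Ctnnd1 internal start, chr2:84650741-84650990, minus strand: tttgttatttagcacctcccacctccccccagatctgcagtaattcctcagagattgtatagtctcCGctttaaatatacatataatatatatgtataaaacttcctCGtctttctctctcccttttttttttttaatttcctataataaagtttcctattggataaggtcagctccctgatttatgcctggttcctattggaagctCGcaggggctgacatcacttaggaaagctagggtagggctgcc
Ctnna3 first start, chr10:63429848-63430097, plus strand: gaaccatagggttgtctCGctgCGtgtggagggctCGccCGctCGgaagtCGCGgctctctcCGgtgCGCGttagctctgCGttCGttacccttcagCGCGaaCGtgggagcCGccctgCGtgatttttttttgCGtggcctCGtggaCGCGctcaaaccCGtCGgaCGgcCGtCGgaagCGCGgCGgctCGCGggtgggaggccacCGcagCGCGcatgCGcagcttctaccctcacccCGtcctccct
Cdh6 start, chr15:13173676-13173925, minus strand: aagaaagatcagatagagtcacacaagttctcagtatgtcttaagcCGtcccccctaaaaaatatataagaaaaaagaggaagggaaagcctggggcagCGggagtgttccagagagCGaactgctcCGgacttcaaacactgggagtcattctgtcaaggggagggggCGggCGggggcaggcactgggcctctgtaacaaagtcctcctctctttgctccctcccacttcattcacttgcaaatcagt

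The Ctnnd1 outer promoter held 26 CpG at a GC content of 66.8%, and no list had a peak within 1 kb of its start. The Ctnnd1 internal promoter held 3 CpG at 40.0% GC, and all 5 lists had a peak over its start. The promoter of the first Ctnna3 start held 36 CpG at 67.6% GC and had peaks in all 5 lists. Ctnna3 also has annotated starts inside the gene, at chr10:63457511 and chr10:63821055, whose promoters are not printed. They held 7 and 1 CpG, and no list had a peak within 1 kb of either start. Of all annotated starts, 59.6% had no region within 1 kb. The Cdh6 promoter held 6 CpG at 51.2% GC and had a peak within 1 kb of its start in no list. Over all 32851 annotated promoters the medians were 6 CpG and 52.4% GC. Of the 3150 starts with at least 26 CpG, 67.7% had a region in all 5 lists within 1 kb and 14.1% had no region, the state of the Ctnnd1 outer start. Of the 12408 starts with at most 3 CpG, 0.814% had a region in all 5 lists over the start, the state of the Ctnnd1 internal start.

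Short motifs were searched on both strands of these promoters. The E-box CACCTG, which Snai and Zeb repressors bind, occurred in 17.2% of all promoters and in none of the 4 printed, and the AP-1 site TGANTCA in 6.75% of all promoters and in none of the 4. The GC box GGGCGG, present in 32.7% of promoters, began 139 bases before the start of Ctnna3, and in Cdh6 overlapping copies began 84 and 80 bases before the start. The CCAAT box, present in 33.8%, began 56 and 32 bases before the outer start of Ctnnd1 and 92 and 53 bases before its internal start. TATAAA, present in 12.4%, began 156 bases before the internal start of Ctnnd1 and was not found in the other 3. GGAATG, present in 12.6%, was in none of the 4. Of the Ctnna3 starts not printed, chr10:63457511 had GGAATG from 109 bases before it and chr10:63821055 had TATAAA from 185 bases before it.

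Of the 10 genes, 8 had a peak in the window in all 5 lists, against 53.2% of all protein-coding genes, and the exceptions were Cdh4 and Cdh6. Such window counts do not allow for window size. By length, the 10 genes had a median of 1.91 regions per 100 kb, below the 3.38 over all genes. At least 1 region present in all 5 lists lay in the window of 7 genes, against 50.0% of all genes. A gene-end peak was found in all 5 lists for Cdh2, Cdh11, Ctnna1 and Ctnna3, 4 of 10 against 35.7% of all genes. Cdh1, Cdh4, Cdh6, Cdh13 and Ctnnd1 had no gene-end peak in any list, 5 of 10 against 48.0% of all genes. Cdh3 had one in HG1 and NG3.

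Most of the open sites of these genes lay inside the gene rather than at its ends. Of the 59 regions, 49 were inside a gene, 9 at a gene end and 1 in a flank. Of the 16 regions present in all 5 lists, 9 were inside, 6 at a gene end and 1 in a flank, so 37.5% lay within 1 kb of an end of a protein-coding gene, against 56.1% of the 12321 such regions of the series. Of all 59 regions 15.3% did, against 29.5% of all regions. These shares were not matched for gene length, and the longest genes, Cdh13 and Ctnna3, held 11 and 14 of the 59 regions. Regions in all 5 lists made up 27.1% of the 59, against 25.1% of all regions. Regions in a single list made up 47.5%, against 39.7% of all regions, and of those 28 regions 5 were from HG1, 2 from HG2, 3 from HG3 and 18 from NG3.

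The merged regions found in every list were wider than the single-list regions. A merged region spans all of its overlapping peaks, so part of this difference follows from the merging. The widths of single peaks were not compared. The 16 shared regions had a median width of 292 bp, between 166 and 609 bp, where the shared regions of the series had a median of 319 bp. The 28 single-list regions had a median width of 91 bp, against 96 bp in the series. The percentile of the shared regions had a median of 63.9 in HG1, 73.4 in HG2, 48.6 in HG3, 55.0 in NG1 and 76.4 in NG3, each below that of all shared regions of the series within the same list, at 70.9, 74.2, 71.1, 72.4 and 83.8. The gap was smallest in HG2 and largest in HG3.

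**Figure D1:**
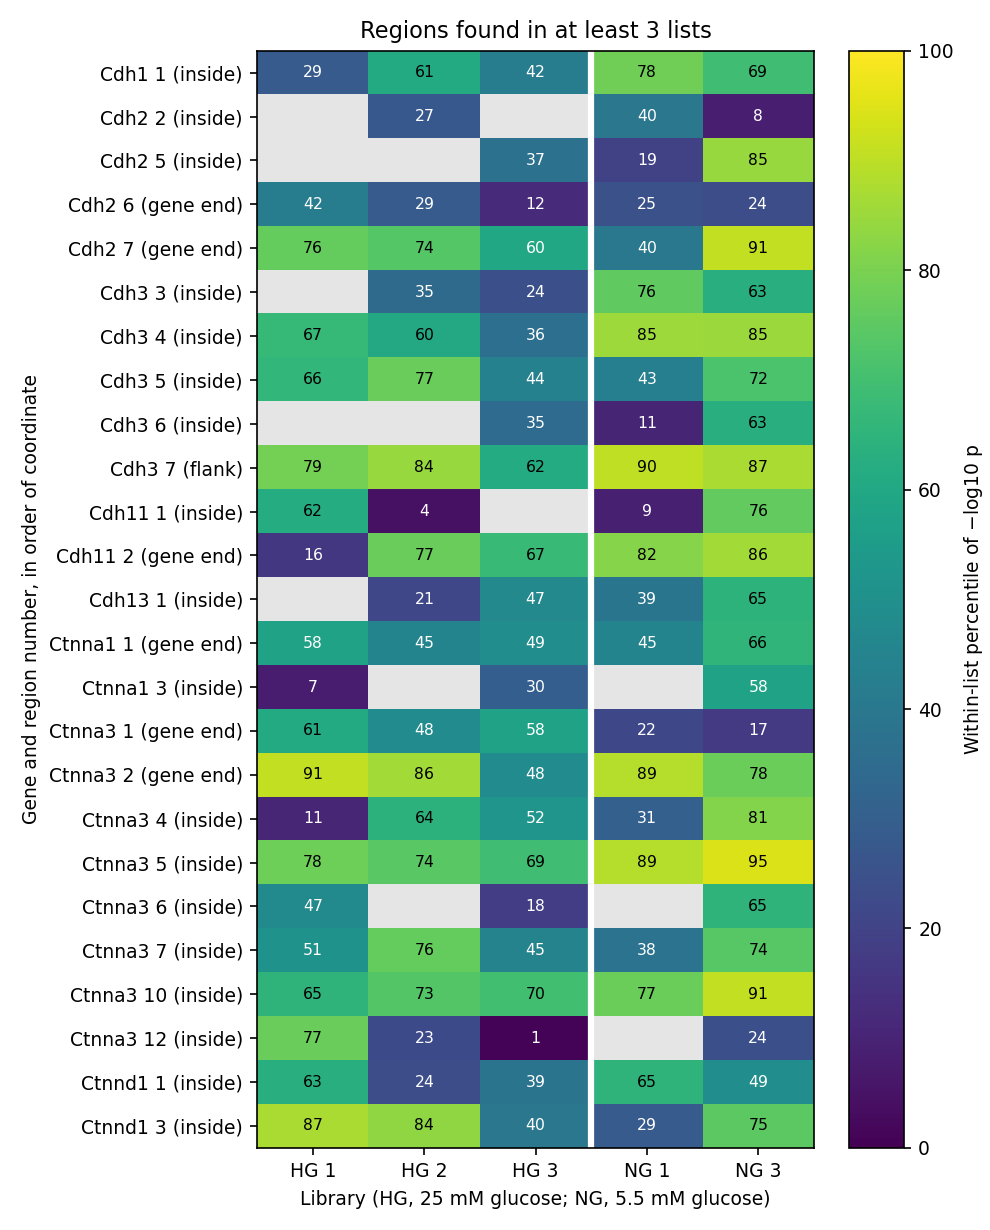
Within-list percentile of -log10 p (colour) of each region found in at least 3 lists, with genes and region numbers down the page and libraries across (HG, 25 mM glucose; NG, 5.5 mM glucose); an empty cell means no peak in that list. Ctnna3 and Cdh3 supply many of the regions that every list holds, while Cdh4, Cdh6 and Cdh13 supply none.

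Cdh2 encodes N-cadherin, the main cadherin of mesenchymal, neural and heart muscle cells. Its window (gene at chr18:16588877-16809246) held 2, 3 and 4 peaks in the high-glucose lists and 4 and 7 in NG1 and NG3, with an overlap at 4. At its high-coordinate end it had a pair of regions in every list. The outer of them, at chr18:16809276-16809537, began 30 bp beyond the annotated end and ranked at percentiles 76.3, 73.5 and 59.98 in HG1, HG2 and HG3, and at 40.0 and 90.7 in NG1 and NG3. Its fold enrichment in the authors' files was 8.68, 8.89 and 7.37 in the high-glucose lists and 6.12 and 12.5 in NG1 and NG3, so both the lowest and the highest value were in normal glucose.

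The inner region of Cdh2, at chr18:16808456-16808676, was lower in its lists, at percentiles 42.3, 28.6 and 12.5 in high glucose and 24.8 and 23.6 in NG1 and NG3. The other 5 regions of Cdh2 lay inside the gene. Of these, the region at chr18:16780667-16780820 was found in HG3, NG1 and NG3, at percentiles 37.4, 19.3 and 84.8, and that at chr18:16713691-16713854 in HG2, NG1 and NG3, at 27.4, 39.7 and 8.48. Both were in each normal-glucose list and in 1 of 3 high-glucose lists.

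Cdh1 encodes E-cadherin, the cadherin of epithelia. Neither end of the gene, at chr8:106603350-106670247, had a peak in any list. Its window held 2, 1 and 1 peaks in the high-glucose lists and 1 and 2 in NG1 and NG3, and its single shared region lay 16.4 kb inside the low-coordinate end, at chr8:106619635-106619931. That region ranked at percentiles 28.6, 61.0 and 42.0 in HG1, HG2 and HG3 and at 78.3 and 69.5 in NG1 and NG3. Its percentile was higher in both normal-glucose lists than in any high-glucose list, a description of places within lists and not of signal. The same order held at 2 shared regions of Cdh3, at that of Cdh11 and at the Ctnna3 regions 112 and 646 kb from its start. The region just before the start of Ctnna3 had the reverse order. At the other shared regions of the 10 genes the groups overlapped. The share of all shared regions of the series with that order was not counted. The 2 other regions of Cdh1 were each in a single list, HG1 at percentile 19.6 and NG3 at 21.1.

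Cdh3 encodes P-cadherin, found in placenta, skin and other epithelia, and it is the neighbour of Cdh1 on chromosome 8, at chr8:106510852-106556911. Although Cdh3 is the shortest of the 10 genes, at 46.1 kb, its window held 7 regions, 3 of them in every list. That is 10.6 regions per 100 kb, above 87.8% of all genes, and 4.61% of all genes had at least 3 shared regions. Peaks numbered 4, 4 and 5 in the high-glucose lists and 5 and 7 in NG1 and NG3.

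The highest placed shared region of Cdh3, at chr8:106561176-106561462, lay 4.41 kb beyond the high-coordinate end, with percentiles of 79.1, 84.4 and 61.6 in HG1, HG2 and HG3 and of 90.5 and 87.4 in NG1 and NG3. The shared region at chr8:106518882-106519213 ranked at 66.8, 60.4 and 36.4 in high glucose and at 85.3 and 85.0 in NG1 and NG3. The third, at chr8:106529905-106530229, ranked at 66.1, 77.3 and 43.9 in high glucose and at 43.2 and 71.7 in NG1 and NG3. Its groups overlapped where those of the other 2 did not. The share of all shared regions that separate was not counted. Their median percentile over the series was 83.8 in NG3, against 70.9, 74.2, 71.1 and 72.4 in HG1, HG2, HG3 and NG1. The region at chr8:106516665-106516914 was in HG2 and HG3 at 34.6 and 24.2, absent from HG1, and in NG1 and NG3 at 75.6 and 62.7. At the low-coordinate end of Cdh3, HG1 and NG3 held peaks just inside the gene that were among the weakest of their lists, at 1.28 and 0.305, and NG3 held another just outside it, at 39.8. The 46.4 kb between Cdh3 and Cdh1 held 1 region outside the windows of both genes, and it was not in all 5 lists.

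Cdh4 encodes R-cadherin, known from retina and brain. Its gene of 457 kb, at chr2:179442423-179899377, held 1, 0 and 0 peaks in the high-glucose lists and 0 and 5 in NG1 and NG3. Each of its 6 regions was in a single list, 1 in HG1 at percentile 6.22 and 5 in NG3 at percentiles between 2.57 and 39.5. When every list was cut to 22149 peaks, the length of the shortest, no peak of NG3 was left in the Cdh4 window.

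**Figure D2:**
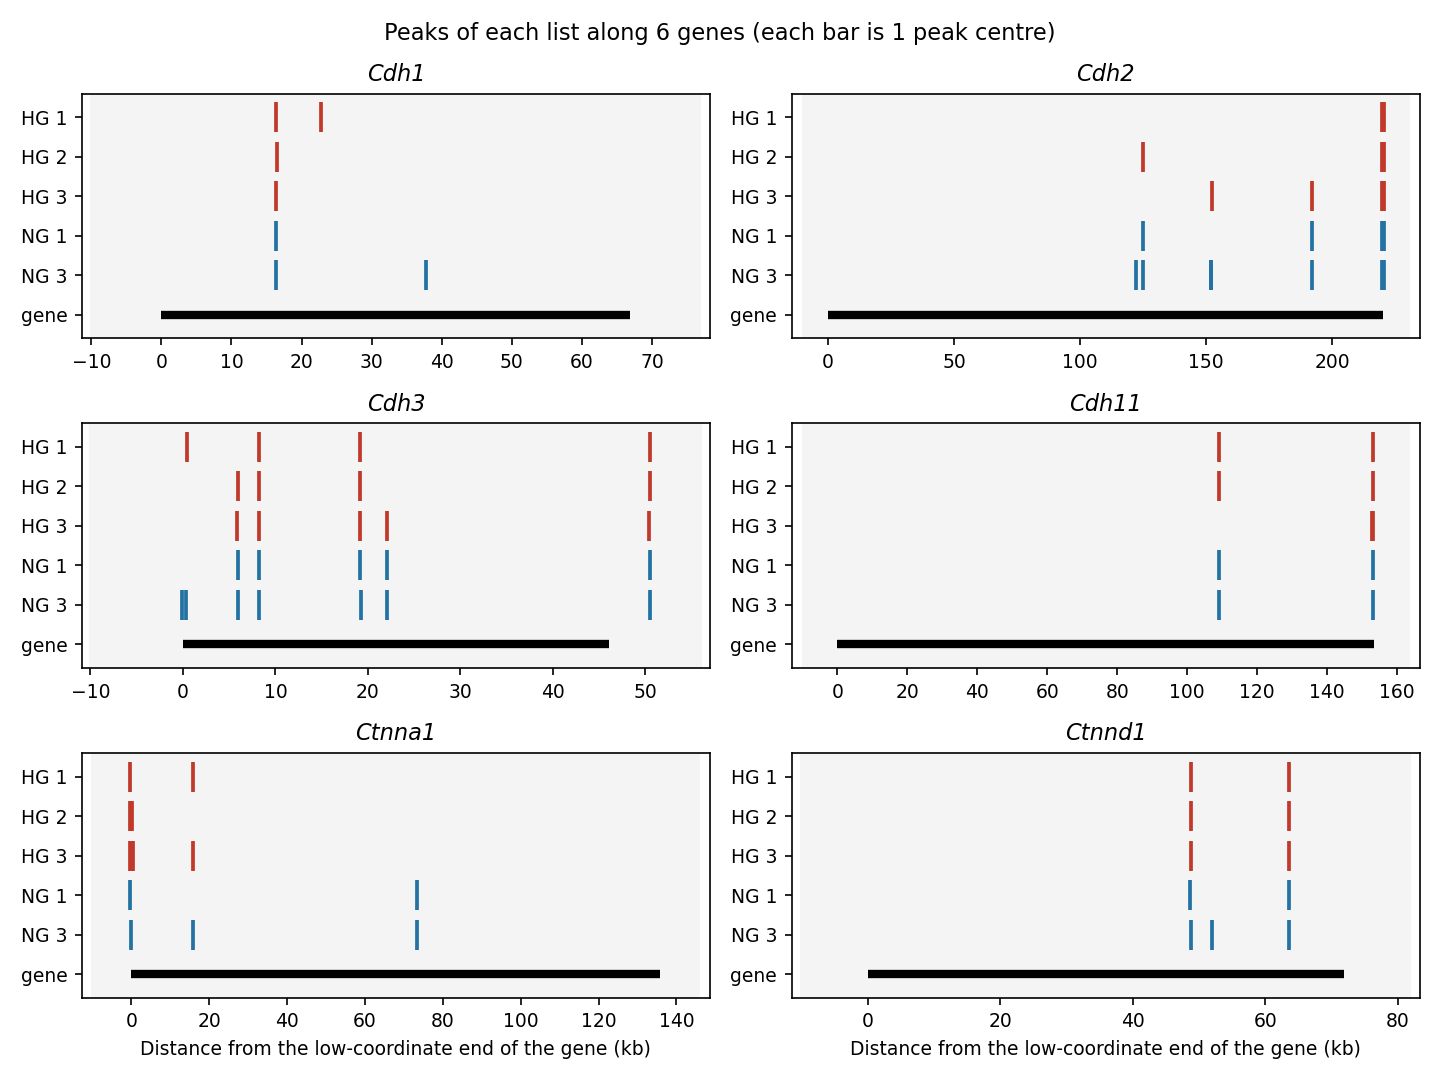
Peaks of each list along 6 of the genes, as distance in kb from the low-coordinate end of the gene, with HG1 to HG3 (25 mM glucose) above NG1 and NG3 (5.5 mM glucose); each bar is the centre of 1 peak. The genes are Cdh1, Cdh2, Cdh3, Cdh11, Ctnna1 and Ctnnd1. Cdh2, Cdh11 and Ctnna1 have a gene-end peak in every list, while Cdh1 and Ctnnd1 have none in any list.

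Cdh11 is a type II cadherin of mesenchyme and bone, also known from heart valve cells. Its gene, at chr8:102632095-102785493, had 2 peaks in each of the 5 lists, the only one of the 10 genes with the same number in all. In HG3 both peaks were in the region at the high-coordinate end. At equal list length there were 2, 1 and 2 peaks in HG1, HG2 and HG3 and 1 and 2 in NG1 and NG3. The region at chr8:102784916-102785319 lay 174 bp inside the high-coordinate end and was in every list. It ranked at percentiles 16.1, 77.1 and 67.2 in HG1, HG2 and HG3 and at 82.0 and 86.0 in NG1 and NG3. The groups did not overlap, and HG1 stood far below the other lists. The other region, at chr8:102740992-102741159, was at 62.0 in HG1, 4.42 in HG2 and absent from HG3, and at 8.77 in NG1 and 76.0 in NG3. In HG1 the inner site was thus the higher placed of the pair.

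Cdh6 is a type II cadherin of kidney and neural crest. The high-glucose lists and NG1 held no peak in its window (gene at chr15:13028699-13176407), and NG3 held 2, at percentiles 12.9 and 31.5, both about 60 kb inside the low-coordinate end. At equal list length no list had a peak there. No peak was found beside the printed start of Cdh6.

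Cdh13 encodes T-cadherin, which is held to the membrane by a GPI anchor and lacks the catenin-binding tail. Its window held 3, 3 and 2 peaks in HG1, HG2 and HG3 and 1 and 6 in NG1 and NG3. None of its 11 regions was in every list, and 9 were in 1 list. The most widely found, at chr8:118286658-118286890, was absent from HG1, ranked at 21.3 and 47.0 in HG2 and HG3 and at 38.9 and 64.6 in NG1 and NG3, and lay within the long non-coding RNA gene Gm51555. The gene, at chr8:118140017-119324929, had a stretch of 417 kb without a peak in any list, and its 0.913 regions per 100 kb were below the median of 3.38 over all genes.

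Ctnna1 encodes alpha-E-catenin, the alpha-catenin of most tissues. Its window (gene at chr18:35118902-35254776) held 2, 2 and 4 peaks in the high-glucose lists and 2 and 3 in NG1 and NG3. The low-coordinate end had a region in every list, at chr18:35118536-35119144, the widest of the 16 shared regions, with percentiles of 57.8, 45.1 and 48.8 in HG1, HG2 and HG3 and of 45.1 and 65.6 in NG1 and NG3. The region held 7 peaks, and the summits of the highest-ranked peak of each list lay up to 283 bp apart. It also overlaps the gene Gm46617. A region 15.9 kb inside the gene was in HG1 and HG3 at 7.43 and 30.1, and in NG3 at 57.7.

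Ctnna3 encodes alpha-T-catenin, an alpha-catenin of heart and testis that binds plakophilin at the intercalated disc. It is the largest of the 10 genes, at chr10:63430098-65003667 or 1574 kb, and held the most peaks, 10, 8 and 9 in the high-glucose lists and 7 and 12 in NG1 and NG3. Of its 14 regions, 6 were in every list, and 24 genes of the series, or 0.11%, had at least as many. By length this was not dense, since 0.879 regions per 100 kb was above 29.7% of all genes. Of the 14 regions, 7 lay in the first 200 kb, and so did 5 of the 6 shared regions, counting those just before the start.

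The start of Ctnna3 was covered by a region at chr10:63430003-63430257, which ranked at percentiles 90.7, 86.1 and 48.4 in HG1, HG2 and HG3 and at 88.9 and 77.7 in NG1 and NG3. The region inside the gene that ranked highest in its weakest list was 112 kb from the start, at chr10:63541747-63542050, with 77.8, 74.3 and 69.4 in high glucose and 88.8 and 94.6 in NG1 and NG3. A region 646 kb from the start, at chr10:64076101-64076266, ranked at 64.9, 73.3 and 69.7 in high glucose and at 77.4 and 90.8 in NG1 and NG3. It lies inside Lrrtm3, a gene of a synaptic adhesion protein nested in Ctnna3 at chr10:63928497-64090255. The shared region 66.7 kb from the start ranked at 10.9, 64.2 and 52.2 in HG1, HG2 and HG3 and at 30.6 and 81.4 in NG1 and NG3. The one 187 kb from the start ranked at 50.9, 76.2 and 44.7 in high glucose and at 37.99 and 74.1 in NG1 and NG3. The groups overlapped at both of these and at the region over the start. At the regions 112 and 646 kb from the start they did not overlap, and both normal-glucose lists were higher.

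**Figure D3:**
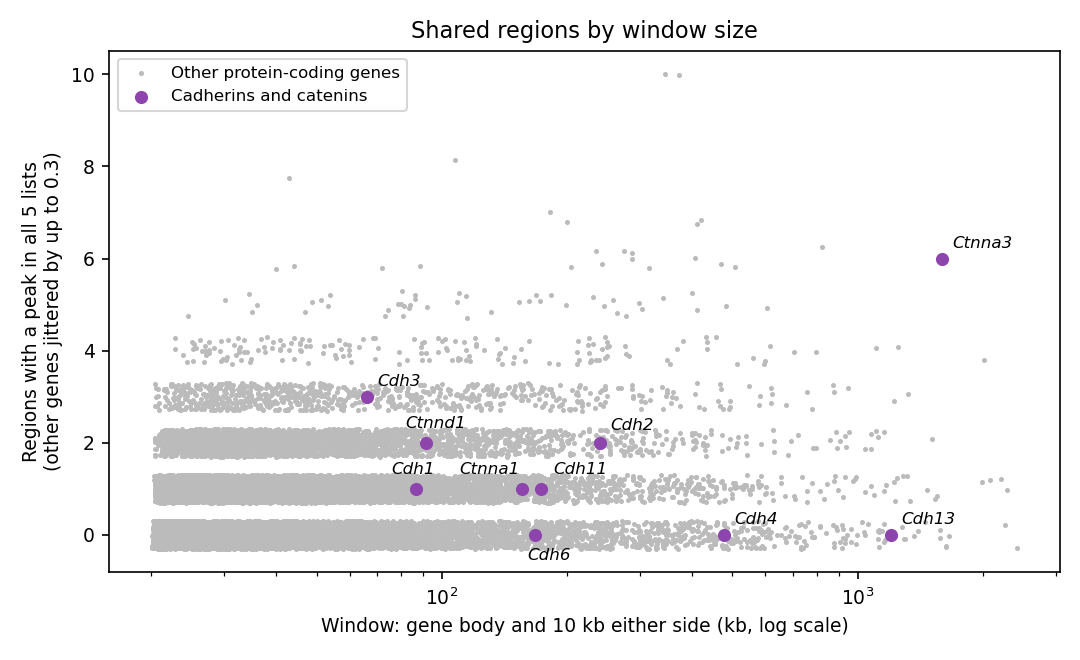
Number of regions with a peak in all 5 lists (other genes jittered by up to 0.3) against the size of the window in kb on a log scale, with the 10 cadherin and catenin genes in purple and other protein-coding genes in grey. Ctnna3 has 6 shared regions, while Cdh13 and Cdh4, also large, have 0.

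Just before the start of Ctnna3 the high-glucose and normal-glucose lists placed the summits of their peaks apart, a site singled out after its values were seen. The peaks ran from 353 to 216 bp before the start in HG1, from 337 to 172 bp in HG2 and from 417 to 215 bp in HG3. In NG1 the peak ran from 568 to 465 bp before the start, and in NG3 from 568 to 285 bp, so the NG3 peak overlapped each high-glucose peak. The summits were 263, 247 and 263 bp before the start in the high-glucose lists, against 512 and 365 bp in NG1 and NG3, with no overlap between the groups. These peaks ranked at percentiles 61.0, 48.3 and 57.6 in high glucose and at 21.5 and 17.0 in NG1 and NG3. How many other shared regions of the series separate the groups by summit or percentile was not counted. A transfer RNA gene, n-TStga3, lies from 622 to 541 bp before the start, so the normal-glucose peaks reached into it and the high-glucose peaks did not. The printed Ctnna3 promoter covers the last 250 bases before the start and thus a part of each high-glucose peak.

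By overlap of 1 bp the 5 peaks formed 1 region, counted above among those in every list, because the NG3 peak touched both the NG1 peak and the high-glucose peaks. At equal list length the low-ranked NG3 peak dropped out, and the high-glucose peaks formed a region of their own, chr10:63429681-63429926, listed by all 3 high-glucose libraries and by neither NG1 nor NG3. At equal length 0.956% of all regions had that pattern. The same region was called at a −log10 q of at least 5, so the call at this site depended on whether the low-ranked NG3 peak was kept.

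**Figure D4:**
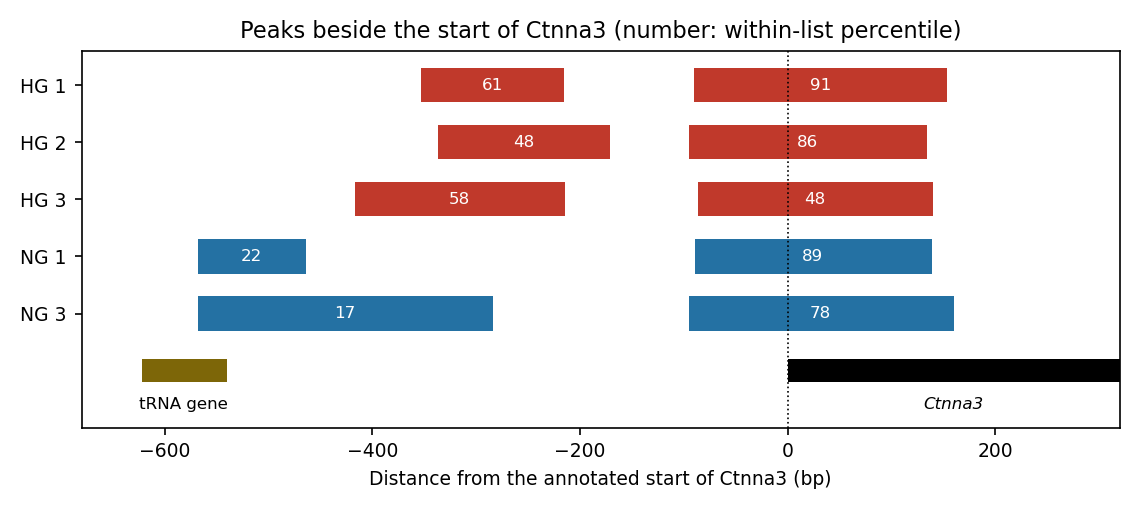
Peaks beside the annotated start of Ctnna3, as distance in bp, with HG1 to HG3 (25 mM glucose) above NG1 and NG3 (5.5 mM glucose) and the within-list percentile printed beside each peak. The upstream peaks have summits 263, 247 and 263 bp before the start in high glucose and 512 and 365 bp in normal glucose, while the peaks over the start overlap in all 5 lists.

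Ctnnd1 encodes p120-catenin, which holds cadherins at the cell surface. Its window (gene at chr2:84587096-84658977) held 2, 2 and 2 peaks in the high-glucose lists and 2 and 3 in NG1 and NG3. The region over the internal start printed above, at chr2:84650607-84650828, ranked at percentiles 87.4, 83.6 and 39.8 in HG1, HG2 and HG3 and at 28.8 and 75.0 in NG1 and NG3. Its fold enrichment in the authors' files was 11.9, 11.5 and 5.84 in high glucose and 5.19 and 9.65 in NG1 and NG3, so HG3 and NG1 were low and the groups overlapped. The other shared region, at chr2:84635636-84636014, ranked at 63.0, 23.6 and 38.6 in high glucose and at 65.0 and 49.1 in NG1 and NG3. The outer start, 95 bp from the neighbouring gene Btbd18, had no peak in any list.

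Between the glucose conditions, none of the 10 genes had numbers of peaks that did not overlap between the 3 high-glucose and 2 normal-glucose lists, against 9.27% of the 15841 genes with a peak in any list (8.9% with fewer and 0.372% with more peaks in every high-glucose list). The mean number of peaks per list was lower in high glucose for 8 genes, higher for Ctnna1 and equal for Cdh11. Over all genes 66.5% were lower and 18.3% higher in high glucose, beside the greater length of the NG3 list. The widest gap was in Cdh2, with a mean ± SD of 3 ± 1 peaks over the 3 high-glucose lists and 5.5 ± 2.12 over NG1 and NG3, a difference of -2.5 with a two-sided exact permutation p of 0.4. Cdh3 had 4.33 ± 0.577 peaks over the high-glucose lists and 6 ± 1.41 over NG1 and NG3, with an exact p of 0.4. For the other 8 genes the exact permutation p lay between 0.8 and 1. With 3 libraries against 2 the smallest p is 0.2, and after Benjamini-Hochberg adjustment over the 15841 genes every gene had an adjusted p of 1 by this exact permutation test, so no difference could have passed the threshold of 0.05.

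At equal list length the mean was higher in high glucose for 6 genes, lower for 2 and equal for 2, against 40.9% higher and 37.7% lower over all genes. Cdh2 had 2, 3 and 4 peaks in high glucose and 4 and 3 in NG1 and NG3, and Cdh3 had 4, 4 and 5 in high glucose and 5 in each of NG1 and NG3. Ctnna3 had 10, 8 and 8 peaks in HG1, HG2 and HG3 and 7 and 6 in NG1 and NG3, so that its groups no longer overlapped. Its difference was 2.17, with the smallest exact permutation p the design allows, 0.2, and 2.25% of 15125 genes had more peaks in every high-glucose list, while 2.64% had fewer.

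**Figure D5:**
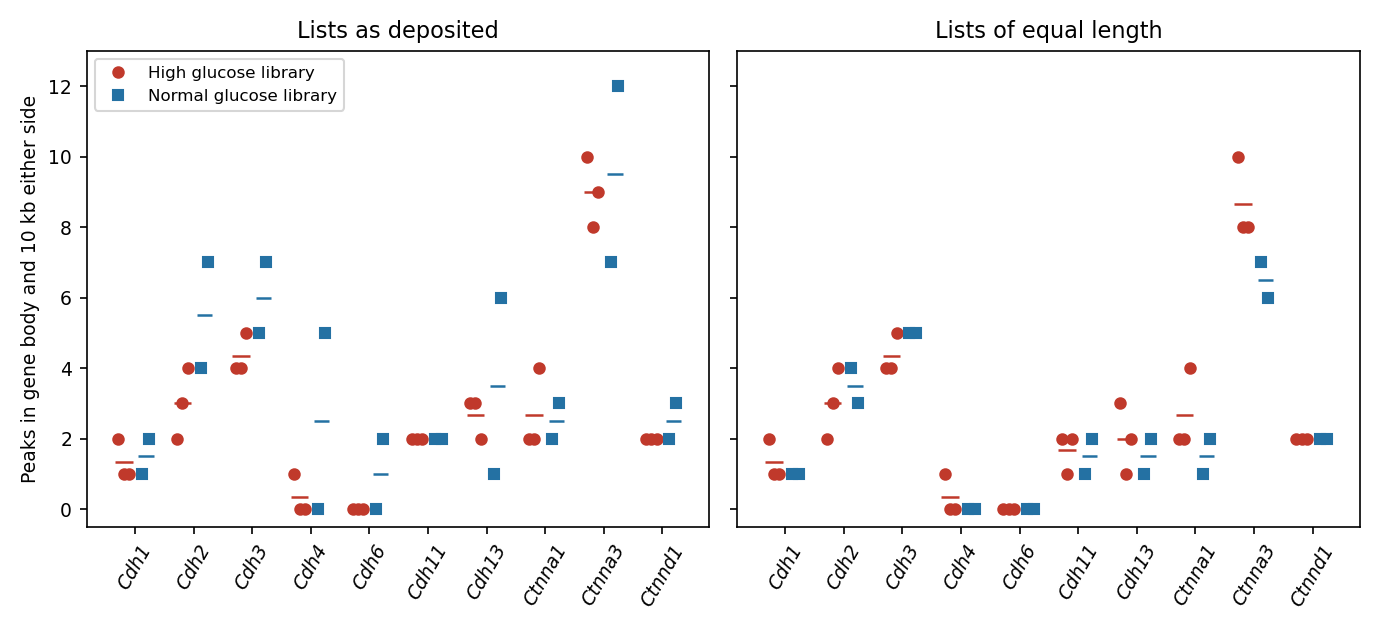
Number of peaks in the gene body and 10 kb either side of each gene, 1 point per library, with high-glucose libraries (25 mM, circles) left of normal-glucose libraries (5.5 mM, squares), for the lists as deposited and at equal list length. The high normal-glucose point of most genes is NG3, and at equal length only Ctnna3 has all 3 high-glucose points above both normal-glucose points.

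No region of the 59 was present in every high-glucose and absent from every normal-glucose list, against 0.167% of all regions, and 0.42% of all genes had such a region in the window. The reverse held for 2 regions, against 3.73% of all regions, and 7.53% of all genes had one. The first was in Ctnna1 at chr18:35192297-35192401, at percentiles 2.72 and 12.9 in NG1 and NG3. The second was in Ctnna3 at chr10:63476197-63476358, at 16.7 and 4.88 in NG1 and NG3. The counts hung on single libraries, with 2 high-glucose-specific regions when NG3 was left out, and 4 and 20 normal-glucose-specific regions when HG3 or NG1 was. Both regions called with all 5 lists were low in NG1 and NG3, and neither was called at equal list length, where 1.62% of all regions were. No window had a peak in every high-glucose list and in neither normal-glucose list, or the reverse, against 0.0366% and 1.02% of all genes.

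Related genes were read from lists drawn up by role. Over all protein-coding genes, 35.7% had a gene-end peak in all 5 lists and 48.0% had none in any list. Among 13 other type I and type II cadherins, Cdh24 alone had a gene-end peak in all 5 lists, at percentile 70.9 in the list where it was weakest, and 10 had none in any list. Of 9 other catenin-family genes, 4 had one in all 5 lists, led by Jup, the plakoglobin gene, at 91.6 where weakest, Ctnnal1 at 85.2 and Pkp4 at 84.5. Ctnnb1, the beta-catenin gene, was neither on this list nor among the genes described above. Pkp4 also had a gene-end region that no high-glucose list and both NG1 and NG3 held, at chr2:59161499-59161768, with percentiles of 42.2 and 48.3 in NG1 and NG3.

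Of 25 genes of adherens junction partners, 16 had a gene-end peak in all 5 lists and 4 in none, against 35.7% and 48.0% of all genes. The highest placed were Adam10, a protease that sheds cadherins, at 98.8 where weakest, Zyx, which encodes the actin-associated zyxin, at 97.9, and Vcl, which encodes vinculin and binds alpha-catenin, at 97.7. Of 6 known repressors of Cdh1, 3 had a gene-end peak in all 5 lists, set beside the same 35.7%. They were Snai1, Tcf3 and Snai2, at 74.5, 63.3 and 29.8 where weakest, and the other 3 had one in some of the lists. Zeb2 had a gene-end region, at chr2:45117419-45117514, that was in no high-glucose list and ranked at percentiles 36.2 and 3.42 in NG1 and NG3. The repressors' gene ends were marked in 5, 5 and 5 of 6 genes in HG1, HG2 and HG3 and in 4 and 6 in NG1 and NG3. Any link between these genes and the state of Cdh1 was not tested.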

How the data were processed

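ATAC-seq peak lists of 6 libraries were read, 1 list per library, in mm10 coordinates per the labels. Per the submitters' processing notes, which give no roles or settings, the tools included MACS2 2.1.0, DiffBind 1.12.3, Bowtie 1.0.0, Picard 1.90, cutadapt 1.0 and SAMtools 0.1.19. Read shifting for the transposase and duplicate handling are not given in the sources used here. Each peak has a score, not used further, and a fold enrichment ratio, both as the authors deposited them. It also has a −log10 p-value and a −log10 q-value from the authors, with −log10 q no lower than 1.30 in any list. The lists give no reads, so a longer list can reflect greater depth, which reaches weaker sites at the same threshold.

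The members, the related gene lists and the tests were chosen with earlier results of these data known. All 10 members were named. Of related genes, those with a condition-specific region at a gene end were named, and the 3 per list with the highest percentile in their weakest library. The annotation (RefSeq, GRCm38.p6) gave gene ends without strand or exons, so regions are not called exonic or intronic. Peaks of the nuclear chromosomes were merged where they shared at least 1 bp. Numbers of peaks per window were compared by two-sided exact permutation tests with Benjamini-Hochberg adjustment. Labels do not say whether replicates were separate cultures, and the spread behind each p-value may be technical. Alternatives were a −log10 q of at least 5, equal list length (22149 peaks), all 6 libraries, each library left out, other windows and overlaps, and same-numbered pairs; peaks per 10000 of the list was added after seeing the data. Scripts ran under Python 3.11.15 with SciPy 1.17.1, pandas 2.3.3, matplotlib 3.10.9 and numpy 2.4.6. Counts were tested on simulated data and checked with bedtools 2.31.1.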

Additional observations from a re-analysis of the deposited data

How the results depend on the processing

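With each of the 5 libraries left out in turn, 8 genes had a window peak in every remaining list and 4 a gene-end peak, shared regions numbered 15 to 18, high-glucose-specific regions 0 to 2 and normal-glucose-specific regions 2 to 20. The 2 high-glucose-specific regions, both in Ctnna3, were called without NG3, and the 20 normal-glucose-specific regions without NG1, when NG3 alone stood for normal glucose. Without HG3 there were 4. At a −log10 q of at least 5, 9 regions were shared, 1 was specific to high glucose and 1 to normal glucose, and at equal list length 1 and 0 were. With all 6 libraries the near-empty NG2 list left 0 genes with a window peak, 0 with a gene-end peak, 0 shared and 0 normal-glucose-specific regions. With windows of 50 kb, 5 regions were specific to normal glucose.

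Differences in mean number of peaks, high minus normal glucose, changed sign in several settings, and no p could pass a threshold in any. At a −log10 q of at least 5 they were -0.167 for Ctnna1, 1.17 for Ctnna3 and 0.167 for Ctnnd1. At equal length they were 0.333 for Cdh1, 0.333 for Cdh4, 0.5 for Cdh13 and 2.17 for Ctnna3. With all 6 libraries they were 0.333 for Cdh1, Cdh3, Cdh13 and Ctnnd1 and 2.67 for Ctnna3. Over the gene body alone Ctnna1 was at -0.333. Per 10000 peaks of the list they were 0.128 for Cdh1, 0.197 for Cdh13, 0.969 for Ctnna3 and 0.0785 for Ctnnd1. Leaving out each library gave -0.667 to 0.333 for Cdh1, -4.67 to 0.333 for Cdh4, -3.33 to 1.67 for Cdh13, -0.5 to 0.667 for Ctnna1 and -3 to 2 for Ctnna3. The cause of these changes was not tested. As a replicate block, pairs 1 and 3 gave -2.5 for Cdh2, -1.5 for Cdh3, 0.5 for Ctnna1 and 0 for Ctnna3, with exact sign-flip p between 0.5 and 1, but the labels do not pair the libraries, and deviations of same-numbered libraries correlated at 0.0372 and -0.0154 across genes. Unknown depth, the longest list in normal glucose and 3 libraries against 2 limit every comparison between the conditions.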
